A study of Mus musculus with 12 samples.

Results

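Genes of the endoplasmic reticulum (ER) folding machinery and of the unfolded protein response are described here in mouse intestine, as 10 genes of the 54532 in the expression tables. They are *Hspa5*, *Hsp90b1*, *Pdia4*, *Creld2*, *Sdf2l1*, *Manf*, *Dnajb9*, *Xbp1*, *Atf4* and *Ddit3*. The set was chosen by a measured value, because *Sdf2l1* had one of the smallest p-values between the 2 tumor genotypes, and the other 9 are genes of the same response. Tumor values are therefore a description with no test. The crypt comparison was not used in the choice and was tested.

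The study asked what removal of ieCtnnb1, an intestinal enhancer upstream of *Ctnnb1* (the β-catenin gene), does to normal and to tumor-bearing intestine. RNA-seq was made from 12 libraries in 4 groups of 3, all from adult mice given no treatment. Small-intestinal crypts came from wild-type mice (WT) and from ieCtnnb1KO mice, in which the enhancer had been deleted on both alleles in the germline and so in every cell type. Colon tumors came from APCmin/+ mice, which carry a nonsense mutation on a single *Apc* allele and form intestinal tumors, and from APCmin/+ mice that also carried the ieCtnnb1KO deletion. The APCmin/+ allele was thus present in every tumor library, control included. Tumor-bearing mice were 5 months old. Tumor pieces were sequenced whole, so they hold stroma and immune cells besides epithelium. Crypt libraries are called WT and knockout below, and tumor libraries control and knockout.

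Expression was given as FPKM, fragments per kilobase of gene divided by a library size, and depth was between 14457896 and 16156712 fragments on genes per library. The size recovered from the values was not the depth itself but 0.953 to 1.07 times it, so the FPKM are not scaled by this depth alone. Crypt and tumor values stand in separate tables, and whether these share a scale is not given in the sources used here. Every difference is therefore taken within a table, and none was tested across them. The study counts its groups in mice, while the sample labels do not name the animal of each library, so p-values measure the spread between these samples.

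Secreted and membrane proteins fold in the ER, where the HSP70 chaperone BiP (encoded by *Hspa5*), the HSP90 chaperone GRP94 (*Hsp90b1*) and disulfide isomerases such as *Pdia4* act on new chains. When unfolded chains accumulate, the membrane sensors IRE1, PERK and ATF6 start the unfolded protein response, in which IRE1 splices *Xbp1* mRNA, PERK raises translation of *Atf4*, and ATF6 is cleaved to a transcription factor. In the intestine this response is best known from cells with a heavy secretory load, the Paneth and goblet cells.

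*Ctnnb1*, whose enhancer was deleted, was read first as a check of the labels. In crypts it stood at 121, 134 and 123 FPKM in WT libraries and at 102, 104 and 105 FPKM in knockout libraries. In tumors it stood at 299, 363 and 358 FPKM in controls and at 279, 248 and 250 FPKM in knockouts. In FPKM as given, the groups did not overlap in either tissue, and the knockouts were the lower ones. Relative to the FPKM total of each library, WT crypt library 3 (123 of 529632) fell below knockout crypt library 1 (102 of 416895). The crypt groups then overlapped, and the tumor groups did not. The crypt log2 fold change was -0.28 ± 0.12 (SE), with a limma adjusted p of 0.849 and an exact two-sided permutation p of 0.1, the smallest that 3 libraries against 3 allow.

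The 10 genes covered a wide range of levels. In FPKM, a scale per gene length, *Hspa5* was highest in both tissues, at 206 ± 68.3 (SD, n = 3) in WT crypts and 128 ± 8.51 in control tumors. *Ddit3* was lowest, at 7.69 ± 2.03 and 6.05 ± 0.515 FPKM. Averaged over the 6 libraries, *Hspa5* lay at the 98.4th percentile of tested genes in crypts and the 98.6th in tumors, and *Ddit3* at the 62.9th and 53.7th. All 10 passed the filter of a mean of at least 0.5 FPKM in both tables.

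In control tumors the order downward was *Hspa5*, *Hsp90b1*, *Pdia4*, *Xbp1*, *Atf4*, *Creld2*, *Sdf2l1*, *Manf*, *Dnajb9* and *Ddit3*. The libraries of *Pdia4* and *Xbp1*, of *Xbp1* and *Atf4*, of *Creld2* and *Sdf2l1*, and of *Sdf2l1* and *Manf* overlapped, so these neighbors did not differ beyond their spread. In knockout tumors *Sdf2l1* stood above *Creld2*, at means of 52.0 and 50.9 FPKM with overlapping libraries, and no other neighbors changed places. In WT crypts *Atf4* and *Xbp1* stood above *Pdia4*, and only the steps below *Hspa5*, *Manf* and *Dnajb9* were free of overlap.

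Some values carry limits of counting. *Manf* has a long annotated span, chr9:106838312-106891979, that shares 6511 bases with *Rbm15b* on the same strand (mean 10.6 FPKM in crypts and 21.5 in tumors) and 42681 bases with *Dcaf1* on the other strand. *Hsp90b1* shares 977 bases with the transcript *Gm15344* (7.62 and 5.39 FPKM). *Ddit3* has a second entry of 105 bases, which was listed at 0 in all 12 libraries, and its main entry shares 68 bases with *Mars* on the other strand. How reads in shared bases were assigned, and whether strand was used, is not given in the sources used here.

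Promoter sequence was examined because *Hspa5*, *Hsp90b1*, *Pdia4* and *Creld2* were high and low in the same libraries of a tissue for the most part. RefSeq windows from 250 bases before to 50 bases after the start site (GRCm38.p6) were at hand for 9 of the 10 genes, without *Manf*. The bipartite ER stress element was searched as CCAAT, then 9 bases, then CCACG, on both strands. It occurred in 3 of the 9 windows and in 39 of 32851 windows of the same length in the genome-wide table (0.119%). The windows with a match are printed with matched bases in capitals, and that of *Sdf2l1*, which had the largest fold of the 10 in tumors, is added for comparison.
*Hspa5*, chr2:34771840-34772139, plus strand: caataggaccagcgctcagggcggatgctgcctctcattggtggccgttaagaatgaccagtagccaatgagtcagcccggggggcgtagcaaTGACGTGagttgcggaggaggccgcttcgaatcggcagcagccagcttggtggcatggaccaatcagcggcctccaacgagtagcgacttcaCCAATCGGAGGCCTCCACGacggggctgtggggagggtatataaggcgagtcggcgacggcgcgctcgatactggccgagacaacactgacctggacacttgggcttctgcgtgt
*Hsp90b1*, chr10:86705395-86705694, minus strand: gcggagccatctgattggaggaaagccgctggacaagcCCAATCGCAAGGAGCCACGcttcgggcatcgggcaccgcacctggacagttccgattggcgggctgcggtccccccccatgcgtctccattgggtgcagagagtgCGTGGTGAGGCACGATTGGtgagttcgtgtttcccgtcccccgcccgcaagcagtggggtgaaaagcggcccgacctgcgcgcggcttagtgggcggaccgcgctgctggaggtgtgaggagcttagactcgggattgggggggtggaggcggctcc
*Creld2*, chr15:88819396-88819695, plus strand: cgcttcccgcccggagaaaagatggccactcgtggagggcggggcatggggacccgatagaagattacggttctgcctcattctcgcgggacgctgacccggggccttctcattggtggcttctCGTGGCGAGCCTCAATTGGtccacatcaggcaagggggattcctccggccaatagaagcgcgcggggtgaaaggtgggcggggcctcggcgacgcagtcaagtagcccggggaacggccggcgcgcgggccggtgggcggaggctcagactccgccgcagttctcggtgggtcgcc
*Sdf2l1*, chr16:17132334-17132633, minus strand: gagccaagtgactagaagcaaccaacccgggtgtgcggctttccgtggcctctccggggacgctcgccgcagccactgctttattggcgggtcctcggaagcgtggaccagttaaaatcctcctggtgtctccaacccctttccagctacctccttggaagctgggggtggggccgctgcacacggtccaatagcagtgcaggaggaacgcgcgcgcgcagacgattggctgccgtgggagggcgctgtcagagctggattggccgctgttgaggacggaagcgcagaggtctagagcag

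The element lay at bases -65 to -47 of *Hspa5*, counted from the start site, on the strand of the gene. *Hsp90b1* held it at -212 to -194 on the strand of the gene and again at -107 to -89 on the opposite strand. *Creld2* held it at -126 to -108 on the opposite strand. The 7 letters TGACGTG, the core of the unfolded protein response element, were found in 1 of the 9 windows, that of *Hspa5* at -157 to -151, and in 2.01% of all windows. The shorter form ATTGG, then 1 base, then CCACG, was in 0 of the 9 and in 0.0365% of all windows. No 2 matches shared bases, and a match is a description, neither a site nor a cause, while its lack says only that these letters are not in that window.

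**Figure D1:**
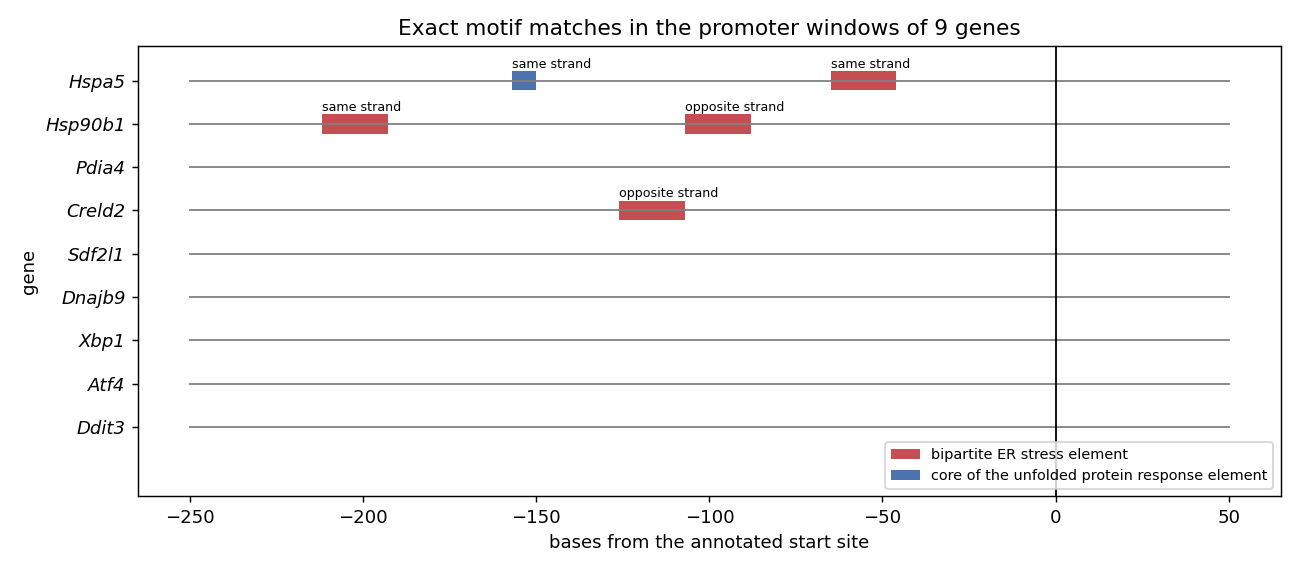
Exact motif matches in the promoter windows of 9 genes, with distance from the annotated start site in bases on the x axis and 1 line per gene. Red boxes mark the bipartite ER stress element, in *Hspa5*, *Hsp90b1* (2 matches) and *Creld2*, and the blue box marks the core of the unfolded protein response element in *Hspa5*.

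In colon tumors all 10 genes had higher means in knockout than in control libraries, by 1.21-fold (*Ddit3*) to 2.07-fold (*Sdf2l1*). For 8 of the 10 every knockout library lay above every control library, against 11.4% of the 16743 tested tumor genes in that direction, and for 0 of the 10 it lay below, against 10.6%. Since the set was chosen on this contrast, these counts are given as a description and nothing is read from them. With the libraries scaled to the same total, with or without the 50 highest genes, or quantile normalized, all 10 log2 fold changes stayed above 0 and 7 of 10 genes remained free of overlap, *Dnajb9* then overlapping.

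*Sdf2l1* (ENSMUSG00000022769, chr16:17130138-17132383) encodes an ER-resident protein that works with the HSP40 co-chaperones of BiP. It stood at 27.5, 25.7 and 22.1 FPKM in control tumors and at 46.4, 49.1 and 60.5 FPKM in knockout tumors. The lowest knockout library was well above the highest control library, and the log2 fold change on log2(FPKM + 0.5) was 1.03 ± 0.13 (SE).

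The other folding factors had the same direction with smaller folds. BiP mRNA, *Hspa5* (ENSMUSG00000026864, chr2:34771970-34777547), stood at 133, 133 and 118 FPKM in controls and at 172, 185 and 251 FPKM in knockouts. For *Hsp90b1* (ENSMUSG00000020048, chr10:86690209-86705509) the controls were at 87.1, 92.3 and 80.4 FPKM and the knockouts at 106, 109 and 136 FPKM. Neither gene had overlapping groups, and in both the third knockout library was far above the other 2. The folds of the means were 1.59 and 1.35.

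*Pdia4* (ENSMUSG00000025823, chr6:47796141-47813430), a disulfide isomerase with several thioredoxin-like domains, stood at 74.7, 74.0 and 66.8 FPKM in controls and 92.4, 100 and 118 FPKM in knockouts. *Creld2* (ENSMUSG00000023272, chr15:88819646-88826683), an ER-resident protein with EGF-like repeats, stood at 33.7, 29.4 and 25.1 FPKM in controls and 47.8, 40.9 and 64.1 FPKM in knockouts. *Manf* (ENSMUSG00000032575), a small ER protein that can be secreted under stress, stood at 23.2, 21.4 and 17.5 FPKM in controls and 33.5, 29.7 and 49.6 FPKM in knockouts. All 3 were free of overlap, and *Creld2* and *Manf* had the widest knockout spread, with coefficients of variation of 23.4% and 28.1%. Their log2 fold changes were 0.52 ± 0.12 (*Pdia4*), 0.77 ± 0.19 (*Creld2*) and 0.82 ± 0.21 (*Manf*).

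*Dnajb9* (ENSMUSG00000014905, chr12:44205559-44210326) encodes ERdj4, a J-domain partner of BiP. Its controls were at 10.7, 12.0 and 12.2 FPKM and its knockouts at 12.4, 18.2 and 17.9 FPKM. The first knockout library exceeded the highest control by a small margin only, and rescaling ended the separation.

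The transcription factors had smaller folds than *Hspa5*, *Pdia4*, *Creld2*, *Sdf2l1*, *Manf* and *Dnajb9*. *Xbp1* (ENSMUSG00000020484, chr11:5520659-5525893) stood at 77.8, 66.2 and 66.5 FPKM in controls and 89.4, 89.6 and 96.1 FPKM in knockouts, without overlap. FPKM per gene do not separate the spliced and unspliced forms of its mRNA. *Atf4* (ENSMUSG00000042406, chr15:80255184-80257541) stood at 62.3, 71.0 and 67.7 FPKM in controls and 85.6, 70.2 and 90.1 FPKM in knockouts, the second knockout library falling within the control range. *Ddit3* (ENSMUSG00000025408, chr10:127290774-127296288), which encodes CHOP, a factor of the late response, stood at 5.52, 6.55 and 6.09 FPKM in controls and 6.38, 7.28 and 8.27 FPKM in knockouts, also with overlap. Log2 fold changes were 0.39 ± 0.097, 0.28 ± 0.12 and 0.25 ± 0.12.

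**Figure D2:**
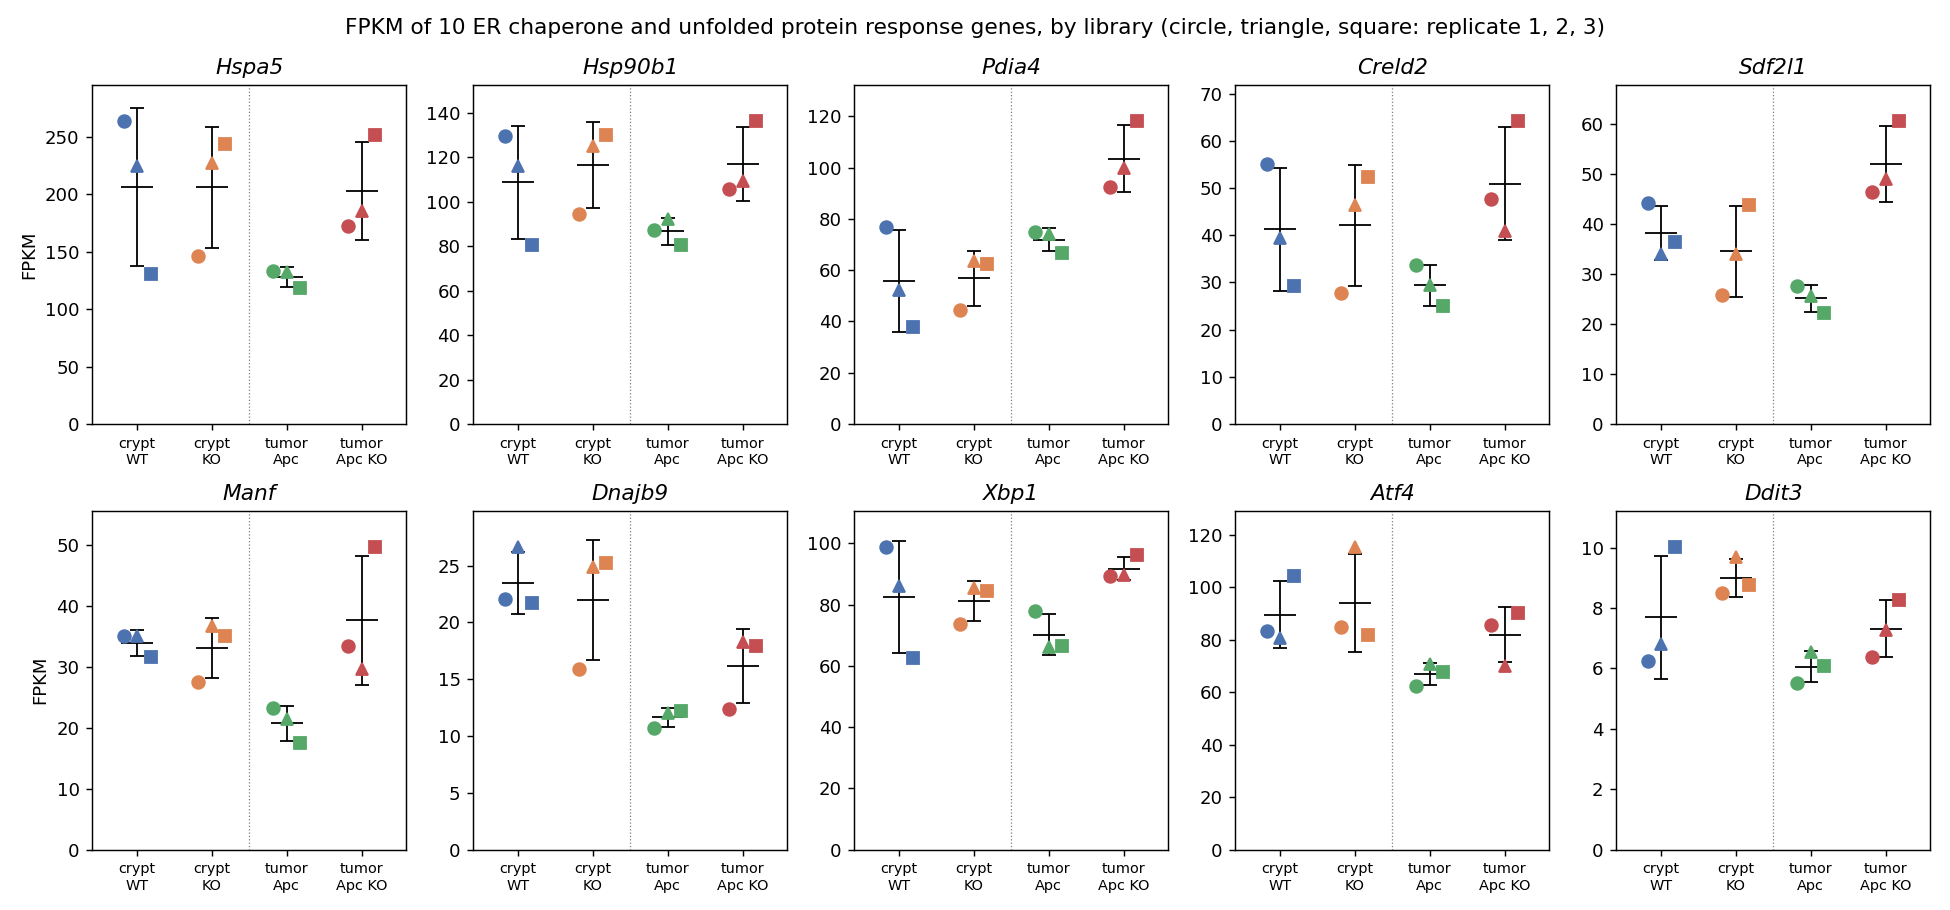
FPKM of the 10 genes (y axis, from 0, 1 panel per gene) in the 4 groups (x axis: WT and knockout crypts, then control and knockout tumors, written Apc and Apc KO). Circles, triangles and squares are replicates 1, 2 and 3, and black bars give mean ± SD (n = 3). Crypt groups overlap in all 10 panels, and tumor groups overlap for *Atf4* and *Ddit3*.

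Knockout tumor 3 had the highest level of the 6 libraries for 9 of the 10 genes, all but *Dnajb9*, and control tumor 3 the lowest for 6. The mean over the 10 genes of log2(FPKM + 0.5), each gene centered on its 6 libraries, was -0.23, -0.23 and -0.37 in controls and 0.14, 0.18 and 0.51 in knockouts. The median log2 fold change of the 10 was 0.48, against 0.0075 over all tested tumor genes. Without knockout tumor 3 it was 0.39, and without knockout tumor 1 it was 0.60. All 10 stayed above 0 with any 1 tumor library left out.

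Levels were also compared between genes within groups. Over the 45 pairs of genes, Pearson r of log2(FPKM + 0.5) after removal of group means was above 0 for 40 pairs in tumors (n = 6 libraries, median 0.570) and for 32 pairs in crypts (n = 6, median 0.658). Over all pairs of tested genes 50% were above 0 in tumors and 50.1% in crypts. The pairs of the 10 genes below 0 reached -0.186 in tumors and -0.836 in crypts. In crypts *Atf4* and *Ddit3* were at their highest or near it in WT library 3, where *Hspa5*, *Hsp90b1*, *Pdia4* and *Xbp1* were at their lowest. With 6 libraries these values are descriptions, and shared library features such as cell makeup may enter them, which was not tested.

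Genes whose tumor pattern was most like the mean of the 10, among 9031 other genes with a mean of at least 5 FPKM, were *Sdcbp2* (r = 0.998 over 6 libraries), *P4ha1* (0.996), *Ccnd3* (0.996), *Calr* (0.996) and *Atp6v0b* (0.993). These genes were picked for that likeness, so how their groups and libraries lie follows from the choice and nothing is read from it. *Calr*, the ER lectin chaperone calreticulin, stood at 217, 209 and 191 FPKM in controls and 275, 271 and 343 FPKM in knockouts. *P4ha1*, a subunit of the ER enzyme that hydroxylates collagen prolines, stood at 7.96, 8.68 and 7.31 FPKM in controls and 12.6, 13.6 and 18.8 FPKM in knockouts. In crypts the closest of 7222 genes were *Mis12* (0.997), *Ythdc1* (0.986), *Tmem68* (0.982), *Zfp24* (0.978) and *Ccdc71l* (0.978), with no gene shared between the 2 tissues.

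**Figure D3:**
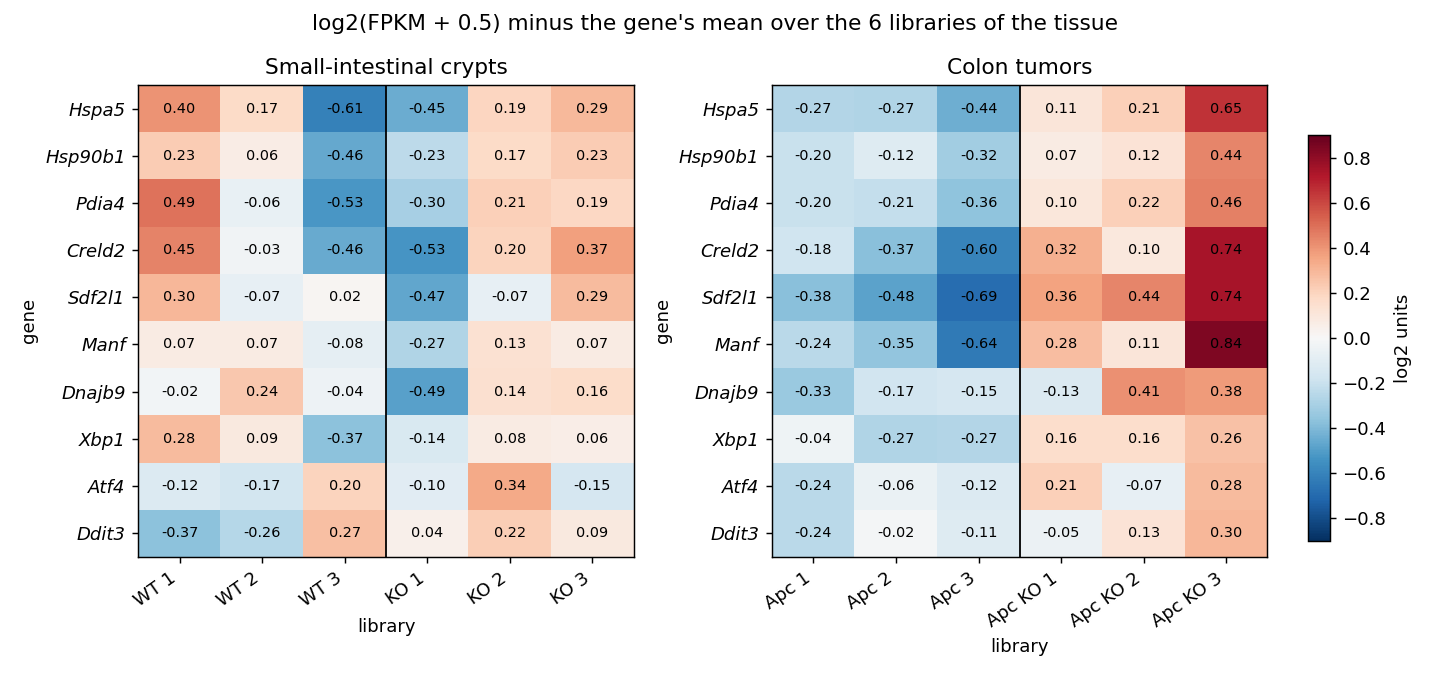
log2(FPKM + 0.5) of each gene (rows) in each library (columns) minus the gene's mean over the 6 libraries of that tissue, in log2 units, red above and blue below the mean, with a black line between genotypes. In tumors all 3 controls are below the mean for all 10 genes, and Apc KO 3 is highest for 9. In crypts WT 3 and KO 1 are both below the mean for *Hspa5*, *Hsp90b1*, *Pdia4* and *Creld2*, while *Sdf2l1* is near its mean in WT 3.

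Markers of some cell types separated the tumor groups. All 8 of 8 goblet cell markers were higher in every knockout tumor than in every control, where 11.4% of all tested tumor genes were. Their summed level was 1416, 1428 and 1464 FPKM in controls and 2706, 3247 and 2863 FPKM in knockouts, with *Spink4* the most abundant (mean 865 FPKM). In bulk tissue, a different number of cells of a type and a different amount of RNA per cell cannot be told apart.

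Epithelial markers, led by *Krt8* (1588 FPKM), were higher without overlap for 4 of 4 (11.4% of all tested genes), with sums of 2635, 2631 and 2311 FPKM in controls and 3031, 3032 and 3090 FPKM in knockouts. Fibroblast markers, led by *Col1a1* (121 FPKM), were so for 3 of 6 (11.4%), and their sums were 345, 216 and 208 FPKM in controls and 346, 452 and 358 FPKM in knockouts. Neutrophil markers, led by *S100a9* (137 FPKM), were lower in every knockout for 3 of 3 (10.6% of all tested genes), with sums of 182, 417 and 283 FPKM in controls and 178, 86.1 and 176 FPKM in knockouts. Both fibroblast and neutrophil sums separated by less than 5 FPKM at their nearest libraries. Tumor library totals ran from 293329 to 346851 FPKM, every knockout above every control. Relative to them, the fibroblast sum of knockout tumor 1 (346 of 317306) fell below that of control tumor 1 (345 of 305396), which ends that separation. So did *Epcam*, *Cdh1* and *Vil1* of knockout tumor 3 (896, 279 and 120 of 346851) against control tumor 1 (810, 271 and 109 of 305396). *Krt8* and the epithelial sum stayed apart. Colonocyte sums, led by *Car1* (95.5 FPKM), were 77.2, 68.7 and 81.9 FPKM in controls and 98.5, 222 and 136 FPKM in knockouts, with 1 of 4 markers higher without overlap (11.4%).

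Plasma cells are rich in the ER proteins described here. Their markers, led by *Igkc* (2273 FPKM), separated for 0 of 7, with sums of 5240, 1594 and 2488 FPKM in controls and 5343, 3393 and 3045 FPKM in knockouts, so that control tumor 1 was above 2 of the 3 knockouts. All 7 had a log2 fold change above 0, from 0.34 (*Pou2af1*) to 0.70 (*Mzb1*), as 51.3% of all tested tumor genes did. Paneth cell sums, led by *Lyz1* (1094 FPKM), were 1759, 1891 and 2070 FPKM in controls and 2728, 4462 and 1446 FPKM in knockouts and overlapped. The macrophage sums (most abundant *C1qa*, 75.8 FPKM, 1 of 3 higher without overlap, against 11.4%) and those of smooth muscle (*Actg2*), enteroendocrine (*Chgb*), stem (*Smoc2*), cycling (*Top2a*), B (*Cd79b*) and T cells (*Cd3g*) overlapped. *Cpa1* of the pancreatic list was at 0 in every tumor library, and no pancreatic, enterocyte or T cell marker passed the filter. The part of these cell types in the tumor values of the 10 genes was not tested.

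In crypts the groups overlapped for all 10 genes. For 0 of the 10 genes was every knockout library above every WT library, where 6.79% of the 14176 tested crypt genes were, and for 0 was every one below, where 5.15% were. No gene of the 10 had a limma adjusted p under 0.05, and neither did any of the 14176 genes (0%). At an unadjusted p under 0.05 there were 829 genes (5.85%), none of the 10 among them, and limma-voom on recovered fragments also called 0 genes at an adjusted p under 0.05 and 805 at an unadjusted one. The smallest adjusted p among the 10 was 0.899, for *Ddit3*. Such values do not show that the genotypes were equal.

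*Hspa5* stood at 263, 224 and 130 FPKM in WT crypts and at 146, 227 and 244 FPKM in knockout crypts. Libraries of a genotype thus differed far more than the group means, whose ratio was 0.998. The log2 fold change was 0.023 ± 0.31 (limma adjusted p = 0.996, exact permutation p = 0.9), turning to -0.10 with quantile normalization. *Hsp90b1*, *Pdia4* and *Creld2* had their low values in the same 2 libraries.

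For *Hsp90b1* WT crypts were at 130, 116 and 80.5 FPKM and knockouts at 94.2, 125 and 130 FPKM. *Pdia4* was at 77.0, 52.3 and 37.9 FPKM in WT and 44.3, 63.6 and 62.4 FPKM in knockouts. *Creld2* was at 55.1, 39.4 and 29.2 FPKM in WT and 27.7, 46.3 and 52.3 FPKM in knockouts. WT library 3 and knockout library 1 were the low ones in all 3 genes, 1 of each genotype, so the group means came out close.

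*Sdf2l1* was at 44.2, 34.1 and 36.3 FPKM in WT and 25.7, 34.0 and 43.8 FPKM in knockouts. Its log2 fold change of -0.17 ± 0.21 (limma adjusted p = 0.933, exact permutation p = 0.4) was the lowest of the 10. Without knockout library 1 it turned to 0.024. *Manf* was at 35.1, 35.1 and 31.5 FPKM in WT and 27.5, 36.7 and 35.1 FPKM in knockouts, the narrowest WT spread of the 10 (6.10% of the mean). *Dnajb9* was at 22.1, 26.6 and 21.7 FPKM in WT and 15.9, 24.8 and 25.2 FPKM in knockouts, with knockout library 1 alone set apart.

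*Xbp1* was at 98.8, 86.1 and 62.6 FPKM in WT and 73.5, 85.4 and 84.5 FPKM in knockouts, again with WT library 3 lowest. *Atf4* was at 83.6, 80.9 and 104 FPKM in WT and 84.8, 115 and 81.7 FPKM in knockouts. *Ddit3* was at 6.26, 6.80 and 10.02 FPKM in WT and 8.50, 9.69 and 8.77 FPKM in knockouts. *Atf4* and *Ddit3* did not follow the chaperones: their WT library 3 was the highest of the WT libraries. *Ddit3* had the largest log2 fold change of the 10, 0.24 ± 0.18 (limma adjusted p = 0.899, exact permutation p = 0.4).

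Over the 10 genes the median log2 fold change in crypts was 0.024, against 0.014 over all tested genes, with 6 above 0 and 4 below. Minus the median of all genes it was 0.010, or 0.027 with libraries scaled to the same total, 0.0024 when the 50 highest genes were left out of that total, and -0.10 with quantile normalization. Under these scalings, in the same order, 9, 3 and 1 of the 10 genes were above 0, and leaving out each library gave 2 to 10. The mean over the 10 genes of centered log2(FPKM + 0.5) was 0.17, 0.0048 and -0.21 in WT libraries and -0.29, 0.16 and 0.16 in knockouts.

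**Figure D4:**
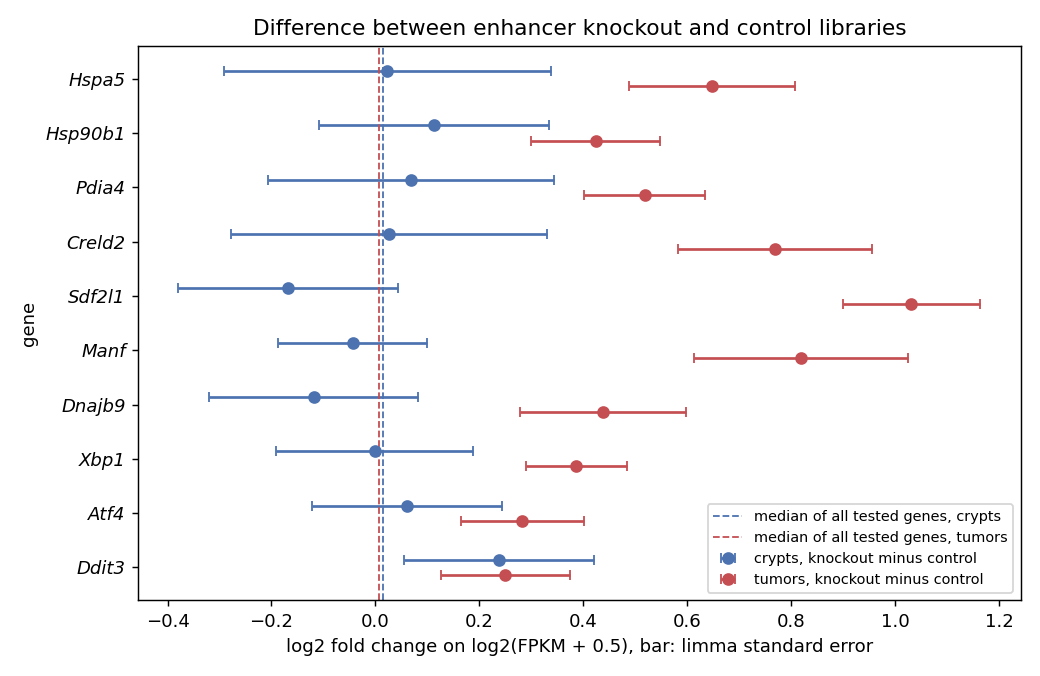
log2 fold change of each gene (y axis) between knockout and control libraries on log2(FPKM + 0.5) (x axis), in crypts (blue) and tumors (red), with bars of ± 1 limma standard error and dashed lines at the median of all tested genes. Tumor values lie between 0.25 and 1.03 and crypt values between -0.17 and 0.24. The tumor contrast was used to choose the genes.

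Other cell types also varied between crypt libraries. Pancreatic acinar markers, led by *Ctrb1* (3.82 FPKM), summed to 6.76, 16.0 and 0.176 FPKM in WT and 0.968, 10.6 and 15.9 FPKM in knockouts, so the libraries lowest in *Hspa5* were those lowest in acinar transcripts. None of the 6 separated the genotypes. Stomach markers, led by *Pgc* (6.54 FPKM), summed to 38.5, 37.8 and 3.07 FPKM in WT and 2.34, 2.24 and 1.74 FPKM in knockouts. *Gkn1* and *Gkn2* of that list were at 0 in the other 4 libraries.

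Enterocyte sums, led by *Apoa1* (2035 FPKM), were 1766, 2306 and 5600 FPKM in WT and 3676, 2666 and 3987 FPKM in knockouts. Paneth cell sums, led by *Defa24* (12578 FPKM, 2 of 8 markers lower without overlap, against 5.15%), were 26204, 39929 and 68137 FPKM in WT and 28374, 25245 and 26943 FPKM in knockouts. WT library 3, lowest in *Hspa5*, was thus highest in both lists. Goblet cell sums, led by *Tff3* (2395 FPKM), were 6045, 9273 and 9753 FPKM in WT and 5483, 6571 and 8335 FPKM in knockouts, and 0 of 8 markers separated.

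Enteroendocrine sums (*Chgb*, 69.8 FPKM, 2 of 6 markers lower without overlap, against 5.15%) were 175, 167 and 242 FPKM in WT and 115, 160 and 155 FPKM in knockouts. Colonocyte sums (*Car4*, 70.8 FPKM, 2 of 4 higher without overlap, against 6.79%) were 76.7, 62.2 and 53.7 FPKM in WT and 103, 103 and 133 FPKM in knockouts. *Car1* and *Aqp8* of that list (means 0.0085 and 0.094 FPKM) did not pass the filter. The sum is thus almost wholly *Car4* and *Slc26a3* (17.8 FPKM), and does not show colonocytes in these small-intestinal crypts. In FPKM as given, the enteroendocrine and colonocyte lists were those besides stomach whose sums separated the genotypes. Crypt library totals ran from 401827 to 529632 FPKM. Relative to them, the enteroendocrine sum of knockout library 2 (160 of 407012) exceeded that of WT library 2 (167 of 497813), which ends that separation. Sums of plasma (*Igkc*), B (*Cd79b*), T (*Cd8a*), stem (*Olfm4*) and cycling cells (*Top2a*), macrophages (*C1qa*), fibroblasts (*Dcn*) and epithelium (*Krt8*) overlapped. No neutrophil or smooth muscle marker passed the filter, and *S100a8* was at 0 throughout. The part of these cell types in the crypt values of the 10 genes was not tested.

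Side by side, *Sdf2l1* had a log2 fold change of 1.03 in tumors and -0.17 in crypts, *Hspa5* 0.65 and 0.023, and *Manf* 0.82 and -0.044. *Creld2* had 0.77 and 0.026, *Pdia4* 0.52 and 0.068, and *Hsp90b1* 0.42 and 0.11. *Ddit3* had 0.25 and 0.24, and the crypt values of *Hspa5*, *Hsp90b1*, *Pdia4* and *Creld2* changed sign with quantile normalization, that of *Manf* with the same total. Whether the tissues differ was not tested, since a common scale of the tables is not given and the tumor contrast chose the genes.

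Related genes were read from 6 lists of other genes, none of which holds any of the 10. The lists were drawn up with earlier results of these data known, so their tumor counts are a description with no test. The first list held 26 further ER chaperones and folding enzymes. In tumors 25 of 26 had a log2 fold change above 0, where 51.3% of all tested genes did, 15 of 26 were higher in knockouts without overlap, where 11.4% of all tested genes were, and 0 were lower, where 10.6% were. For all 6 lists, counts without overlap are in FPKM as given and were not retaken after scaling. Relative to the tumor library totals some of the 15 overlapped. *Serp1* of knockout tumor 3 (51.2 of 346851) fell below that of control tumor 3 (48.6 of 293329). *Canx* and *Pdia3* of knockout tumor 1 (81.0 and 243 of 317306) fell below those of control tumor 3 (77.1 and 233). Others, such as *Calr* and *Pdia6*, stayed apart. The list median was 0.24. Scaling to the same total moved the median of all tumor genes from 0.0075 to -0.090, so list medians in tumors are also given minus that of all genes, which for this list was 0.23, or 0.22 with the same total and 0.18 with quantile normalization. In crypts 11 of 26 were above 0, where 52.8% of all tested genes were, 1 was higher (6.79%) and 2 were lower (5.15%) without overlap, and the median was -0.033. Scaling to the same total moved the median of all crypt genes from 0.014 to 0.14, and minus it the list median was -0.048, or -0.030 with the same total, -0.055 without the 50 highest genes and -0.13 with quantile normalization. In crypts the medians minus that of all genes stayed below 0 under these scalings also for sensors, ATF4 targets and heat shock proteins (-0.070 to -0.011), and changed sign for degradation and translocon genes.

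In that list *Fkbp2*, a prolyl isomerase, stood at 40.3, 34.2 and 24.2 FPKM in control tumors and 50.1, 48.1 and 67.6 FPKM in knockouts. *Pdia6*, a disulfide isomerase that binds BiP, stood at 56.6, 51.6 and 43.3 FPKM in controls and 76.4, 69.5 and 89.4 FPKM in knockouts. Both had knockout tumor 3 highest and control tumor 3 lowest, as had *Sdf2l1* and *Hspa5*. In crypts the largest separated differences were those of *P4hb*, the main disulfide isomerase (log2 fold change 0.37 ± 0.17, limma adjusted p = 0.857), and *Pdia5* (-0.39 ± 0.22, limma adjusted p = 0.875).

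ER-associated degradation, which moves misfolded proteins to the proteasome, was read from 20 genes. In tumors 14 of 20 were above 0 (51.3% of all tested genes), 7 were higher (11.4%) and 1 was lower (10.6%) without overlap. The median was 0.13, and minus that of all genes 0.12, or 0.11 with the same total and 0.093 with quantile normalization. *Herpud1*, a scaffold of the pathway induced by the unfolded protein response, stood at 33.8, 42.9 and 45.7 FPKM in controls and 52.5, 71.3 and 72.1 FPKM in knockouts. *Selenos*, which links it to the ATPase VCP, stood at 23.5, 23.3 and 23.5 FPKM in controls and 29.7, 32.5 and 40.2 FPKM in knockouts. In crypts 10 of 20 were above 0 (52.8%) with a median of 0.0071, 2 genes were higher (6.79%) and 1 lower (5.15%) without overlap, and the former were *Vcp* (0.25 ± 0.13, limma adjusted p = 0.860) and *Derl1* (0.21 ± 0.10, limma adjusted p = 0.860).

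Entry into the ER and N-glycosylation were read from 24 genes of the translocon, signal peptidase and oligosaccharyltransferase. In tumors 23 of 24 were above 0 (51.3% of all tested genes), and 8 were higher without overlap (11.4%). The median was 0.14, and minus that of all genes 0.14, or 0.13 with the same total and 0.080 with quantile normalization. *Ssr2*, of the translocon-associated complex, stood at 66.2, 64.7 and 53.9 FPKM in controls and 81.7, 67.4 and 98.6 FPKM in knockouts. *Ostc*, an oligosaccharyltransferase subunit, stood at 29.3, 27.5 and 26.9 FPKM in controls and 34.7, 33.2 and 40.9 FPKM in knockouts. In crypts 17 of 24 were above 0 (52.8%) with a median of 0.071, and 1 was higher without overlap (6.79%), *Dad1* (0.23 ± 0.13, limma adjusted p = 0.860).

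Sensors and regulators of the response were read from 14 genes, among them *Ern1*, *Eif2ak3* and *Atf6*, the genes of IRE1, PERK and ATF6. In tumors 8 of 14 were above 0 (51.3% of all tested genes), and 3 were higher (11.4%) and 2 lower (10.6%) without overlap. The median was 0.032, turning to -0.075 with the same total, and minus that of all genes it was 0.024 and 0.016, and 0.017 with quantile normalization. *Creb3l1*, an ER-anchored transcription factor, stood at 31.3, 26.1 and 31.9 FPKM in controls and 39.7, 46.2 and 35.01 FPKM in knockouts. *Creb3l3* was near the filter, with means of 0.824 and 1.53 FPKM. *Ern2*, the gene of the IRE1 form of gut epithelium, named after its values were seen, was the 1 gene of 14 with an unadjusted p under 0.05 in crypts, where 5.85% of all tested genes were. It stood at 15.4, 24.3 and 32.3 FPKM in WT and 11.9, 10.7 and 16.6 FPKM in knockouts, with overlap (log2 fold change -0.82 ± 0.29, limma adjusted p = 0.806, exact permutation p = 0.2). Its unadjusted limma p rose above 0.05 without WT library 2 (0.069) or 3 (0.070), or without knockout library 1 (0.070) or 2 (0.078). In crypts 7 of 14 were above 0 (52.8%), 1 was higher (6.79%) and 1 lower (5.15%) without overlap, and these were *Creb3* (0.20 ± 0.12, limma adjusted p = 0.890) and *Atf6b* (-0.14 ± 0.11, limma adjusted p = 0.901, turning to 0.0094 with the same total, where the median of all crypt genes was 0.14).

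Targets of ATF4 and CHOP were read from 28 genes of amino acid supply, tRNA charging and stress. In tumors 22 of 28 were above 0 (51.3% of all tested genes), and 5 were higher (11.4%) and 2 lower (10.6%) without overlap. The median was 0.13, and minus that of all genes 0.13, also with the same total, and 0.11 with quantile normalization. *Slc7a11*, the cystine transporter, was lower, at 7.05, 9.02 and 7.49 FPKM in controls and 5.32, 4.91 and 4.79 FPKM in knockouts. *Stc2*, a secreted glycoprotein, was higher, at 3.75, 3.36 and 2.44 FPKM in controls and 5.51, 5.26 and 4.03 FPKM in knockouts. Genes of this arm thus stood on both sides, and *Atf4* itself overlapped between groups. In crypts 26 passed the filter, 13 of them above 0 (52.8%), with 1 higher (6.79%) and 1 lower (5.15%) without overlap. Both had an unadjusted p under 0.05 (5.85% of all tested genes). They were *Cth*, an enzyme of cysteine synthesis (0.58 ± 0.13, limma adjusted p = 0.728), and *Ppp1r15a*, a phosphatase subunit that ends the PERK signal (-0.70 ± 0.18, limma adjusted p = 0.757).

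Cytosolic heat shock proteins, which answer to unfolded proteins outside the ER, were read from 16 genes. In tumors 15 of 16 were above 0 (51.3% of all tested genes), and 8 were higher without overlap (11.4%). The median was 0.32, and minus that of all genes 0.31, or 0.30 with the same total and 0.19 with quantile normalization. The mean of their centered log2 values was -0.27, -0.24 and -0.23 in controls and -0.071, 0.075 and 0.73 in knockouts, by far the highest in knockout tumor 3. *Hspa1b* stood at 7.58, 5.66 and 5.51 FPKM in controls and 10.2, 18.4 and 42.9 FPKM in knockouts. *Hspa1a* stood at 1.31, 0.919 and 1.08 FPKM in controls and 2.26, 4.03 and 12.0 FPKM in knockouts, and since both genes have nearly the same sequence, their reads may be split between them. In crypts 15 passed the filter, 7 of them above 0 (52.8%), and for 0 did the groups separate. The centered mean there was 0.62 in WT library 1 and 0.58 in knockout library 2, and between -0.64 and -0.16 in the other 4.

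**Figure D5:**
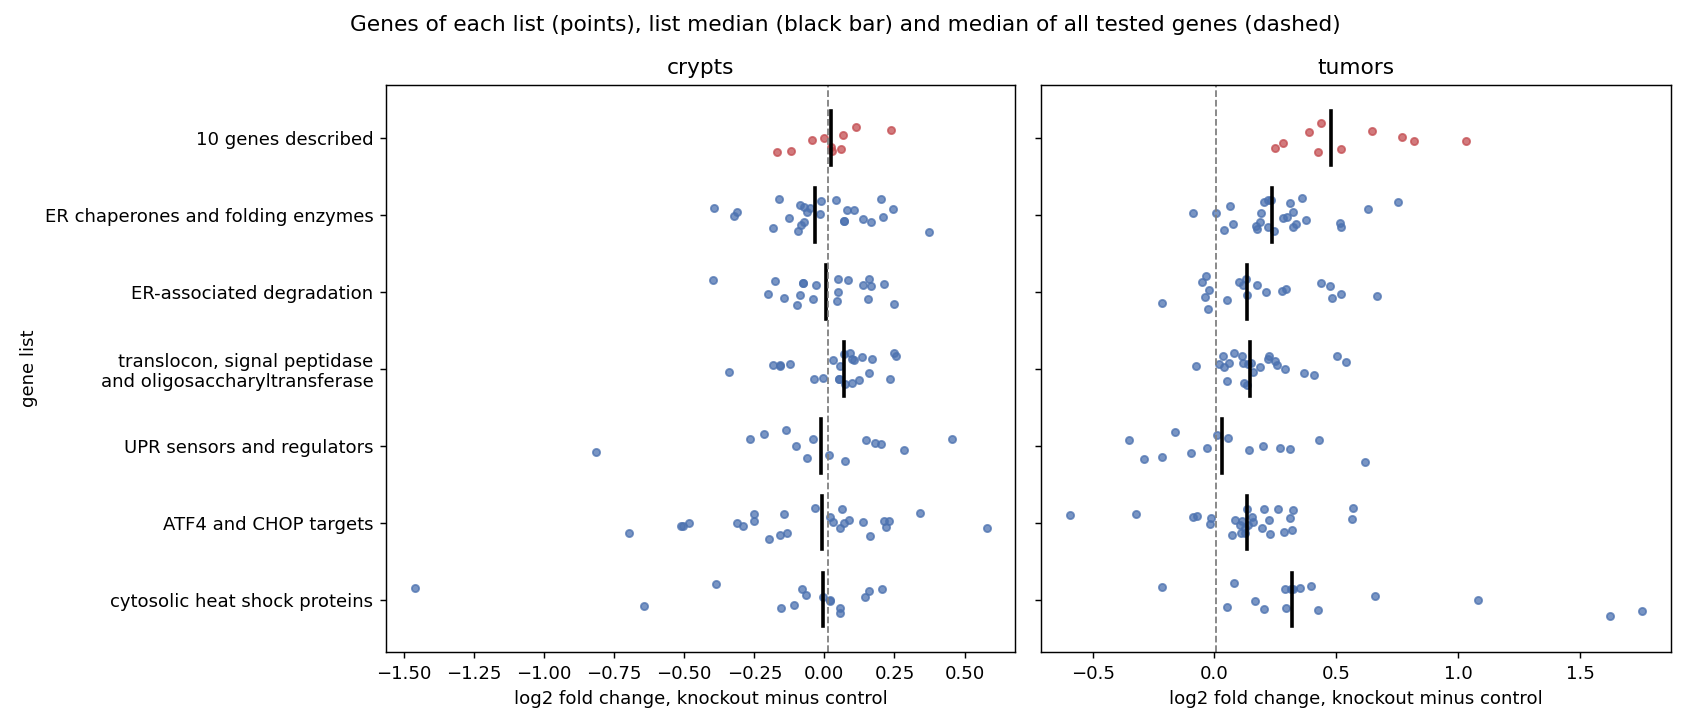
log2 fold change between knockout and control libraries (x axis) of each tested gene (points) in the 10 genes described (red) and in 6 lists of related genes (blue), in crypts (left) and tumors (right). Black bars are list medians and dashed lines the median of all tested genes, 0.014 in crypts and 0.0075 in tumors. List medians of these 6 run from -0.033 to 0.071 in crypts and from 0.032 to 0.32 in tumors.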

How the data were processed

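The deposited values are FPKM per gene and library, which the authors made from paired-end NovaSeq reads of crypts released with EDTA and of tumor tissue. Per the study's methods, reads were aligned with Hisat2, counted with featureCounts and tested with DESeq2, while the submitters' processing notes also list cutadapt, Cufflinks 2.2.1 and mm10. How FPKM were computed and scaled is not given in the sources used here. In each library, FPKM above 0 multiplied by gene length fell on whole steps (100% within 0.05), and these gave the depths. Genes with a mean of at least 0.5 FPKM over the 6 libraries of a table were taken to log2(FPKM + 0.5) and fitted with a variance trend by limma 3.58.1 (R 4.3.3), and p-values were Benjamini-Hochberg adjusted over all of them. This scale understates folds of low genes. Since the deposited unit is FPKM, the study's count test was not repeated, and limma-voom on recovered fragments stands beside the main test. The procedure was tested on simulated data. Members and lists were chosen with earlier results of these data known. Named from each list were the 2 genes with the largest absolute log2 fold change among those without overlap and with a mean of at least 1 FPKM, and, by likeness, the 5 genes with the highest r. Alternatives were other pseudocounts (0.1 and 1), filters, scalings and moderation, limma-voom, a replicate block and leaving out each library.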

Additional observations from a re-analysis of the deposited data

How the results depend on the processing

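The count of 0 crypt genes with an adjusted p under 0.05 held under other pseudocounts, filters, scalings, moderation and limma-voom. Leaving out each library gave 0 to 3, the 3 being *Pgc*, *Gkn1* and *Gkn2* without WT library 3, named here after their values were seen. By limma, genes at an unadjusted p under 0.05 numbered 829, against 1349 of 26718 with no filter, 1344 without WT library 1 and 462 without knockout library 1. Same-numbered libraries did not deviate together (r between -0.122 and 0.054), and with the replicate number as a block the count was 0, with 732 genes at an unadjusted p under 0.05. The block left the medians at 0.024 in crypts and 0.48 in tumors.

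Scaling to the same total moved the median of all crypt genes from 0.014 to 0.14, and the median of the 10 genes minus it from 0.010 to 0.027 (0.0024 without the 50 highest genes, -0.10 with quantile normalization, -0.17 to 0.16 leaving out each library). In tumors, where the same total moved the median of all genes from 0.0075 to -0.090, that difference was 0.47, and 0.39 to 0.46 under the scalings. In crypts with the same total, *Ddit3* was above every WT library, so that 1 of 10 genes was, and leaving out each library gave 0 to 1. Without WT library 3 every knockout library of *Xbp1* lay below the WT libraries. Without knockout library 3 so did those of *Sdf2l1*, at 34.05 against 34.06 FPKM in the nearest libraries. In tumors all 170 log2 fold changes of the 10 genes under alternatives were above 0 (0.14 to 1.11).

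In crypts 29 of 170 changed sign, and the cause was not tested. With the same total, *Manf* was 0.10, *Xbp1* 0.15, *Dnajb9* 0.027 and *Atf6b* 0.0094. Without the 50 highest genes, *Hspa5* was -0.039, *Creld2* -0.036 and *Atf4* -0.0014. With quantile normalization *Hspa5* was -0.10, *Hsp90b1* -0.014, *Pdia4* -0.071, *Creld2* -0.088 and *Atf4* -0.055. Leaving out each library gave -0.35 to 0.024 for *Sdf2l1*, -0.28 to 0.25 for *Hspa5*, -0.088 to 0.26 for *Hsp90b1*, -0.18 to 0.33 for *Pdia4*, -0.20 to 0.30 for *Creld2*, -0.12 to 0.081 for *Manf*, -0.19 to 0.14 for *Xbp1*, -0.096 to 0.17 for *Atf4* and -0.23 to 0.095 for *Dnajb9*. *Ddit3* did not change sign, but rose to 0.43 without WT library 3 and was lower than in the main fit without WT library 1. Recovered depth was alike in all libraries, but reads were not at hand, so splicing of *Xbp1* and strand were not examined.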
